A study of Mus musculus with 10 samples.

Results

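The genes described here are 40 genes of fatty acid synthesis, desaturation, glycerolipid synthesis and lipid droplet storage. They were taken by gene symbol from a table of 39017 genes, and all 40 were found in it. RNA sequencing covered 10 mouse lung tumours, 5 labelled control (KP) and 5 labelled knockout (KPG1), to ask how tumours without the glucose transporter Glut1 differ from those that have it. All animals were C57BL/6 males, and Cre under the SPC promoter, which is active in alveolar type 2 cells, was delivered into the lungs by adenovirus. KPG1 mice were homozygous fl/fl for Slc2a1, the gene of Glut1. For the controls one label gives heterozygous fl/wt and another gives wild type, so KP stands here for the control group as labelled. Both groups share the engineered alleles that start the tumours. Tumours were taken 18 weeks and 6 days after initiation, cut out, dissociated and cleared of CD45-positive immune cells with magnetic beads, so each library mixes tumour cells with other CD45-negative lung cells. In such bulk samples, fewer cells of a type and less RNA per cell cannot be told apart. The labels do not say that each tumour came from its own mouse, so p-values measure the spread between these samples.

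Fatty acids are built in the cytosol from acetyl-CoA. Acetyl-CoA carboxylase makes malonyl-CoA, fatty acid synthase joins these units into palmitate, elongases lengthen the chain and desaturases put in double bonds, and the transcription factor SREBP-1 drives many of these genes. The finished acyl chains are joined to glycerol 3-phosphate to give membrane lipids or triglyceride, and triglyceride is stored in lipid droplets coated by perilipins until lipases release it. Alveolar type 2 cells, the cells in which Cre was active, run this pathway at a high rate to make the phosphatidylcholine of lung surfactant. Hypoxia and the nuclear receptors of the PPAR family are known to induce several of the genes described here, among them Hilpda and Angptl4.

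Library totals ran from 32427029 to 49534284 counts. Levels are given as CPM, a gene's count relative to its library total after scaling by TMM factors, and as CPM per kb of exon where genes are compared with each other. Slc2a1 was at 78.8, 127, 123, 109 and 71.7 CPM in KP tumours 1 to 5, and at 47.3, 66.8, 40.8, 51.3 and 44.3 CPM in KPG1 tumours 1 to 5. The groups did not overlap. The KPG1 mean was 49.2% of the KP mean, with a log2 fold change (KPG1 relative to KP) of -1.01, SE 0.20, and a limma adjusted p of 0.0675. A two-sided exact permutation test gave p = 0.00794, the lowest value possible with 252 rearrangements. Reads from undeleted exons and from cells without Cre also count towards this gene.

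None of the 40 genes passed the test between the genotypes. Of the 39 members with enough reads, 0 had a limma adjusted p under 0.05, where 28 of 16216 genes tested did (0.173%), and 0 did so with edgeR's quasi-likelihood test. At an unadjusted limma p under 0.05, 6 members (15.4%) passed, against 11.6% of all genes tested. Of these 6, Fasn, Acss2 and G0s2 had a higher mean in KPG1 (3 members, against 5.26% of all genes), and Cidea, Hilpda and Angptl4 a lower one (3 members, against 6.31% of all genes). The groups overlapped for every one of the 39 members, while 2.81% of all genes tested showed no overlap. The median log2 fold change over the members was 0.09, and over all genes tested 0.02, with 22 members higher and 17 lower. DESeq2 called 2 members lower, Cidea (adjusted p = 0.0112) and Hilpda (adjusted p = 0.0238), where it called 2.67% of all genes lower. In simulated counts with known changes, 44 of 185 DESeq2 calls were false, against 3 of 99 with limma and 4 of 105 with edgeR. There limma called only 25.8% of the genes with a true 2-fold difference. A member without a call is therefore not shown to be unchanged. Without KP 5, limma called Hilpda (adjusted p = 0.0214) and Dgat2 (adjusted p = 0.022) lower, where 1.35% of all genes were called lower. KP 5 was the lowest KP tumour for both genes, so leaving it out widens their differences by construction. The counts at an unadjusted p moved with single tumours: 8 members were higher without KP 2, 5 without KPG1 5 and 1 without KP 5 or KPG1 2, and 7 were lower without KP 5. Calls over all genes moved as well (3 to 71 higher and 1 to 223 lower at an adjusted p under 0.05). Shares over all genes at an unadjusted p are not given for these fits, so the counts do not set the members apart.

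**Figure D1:**
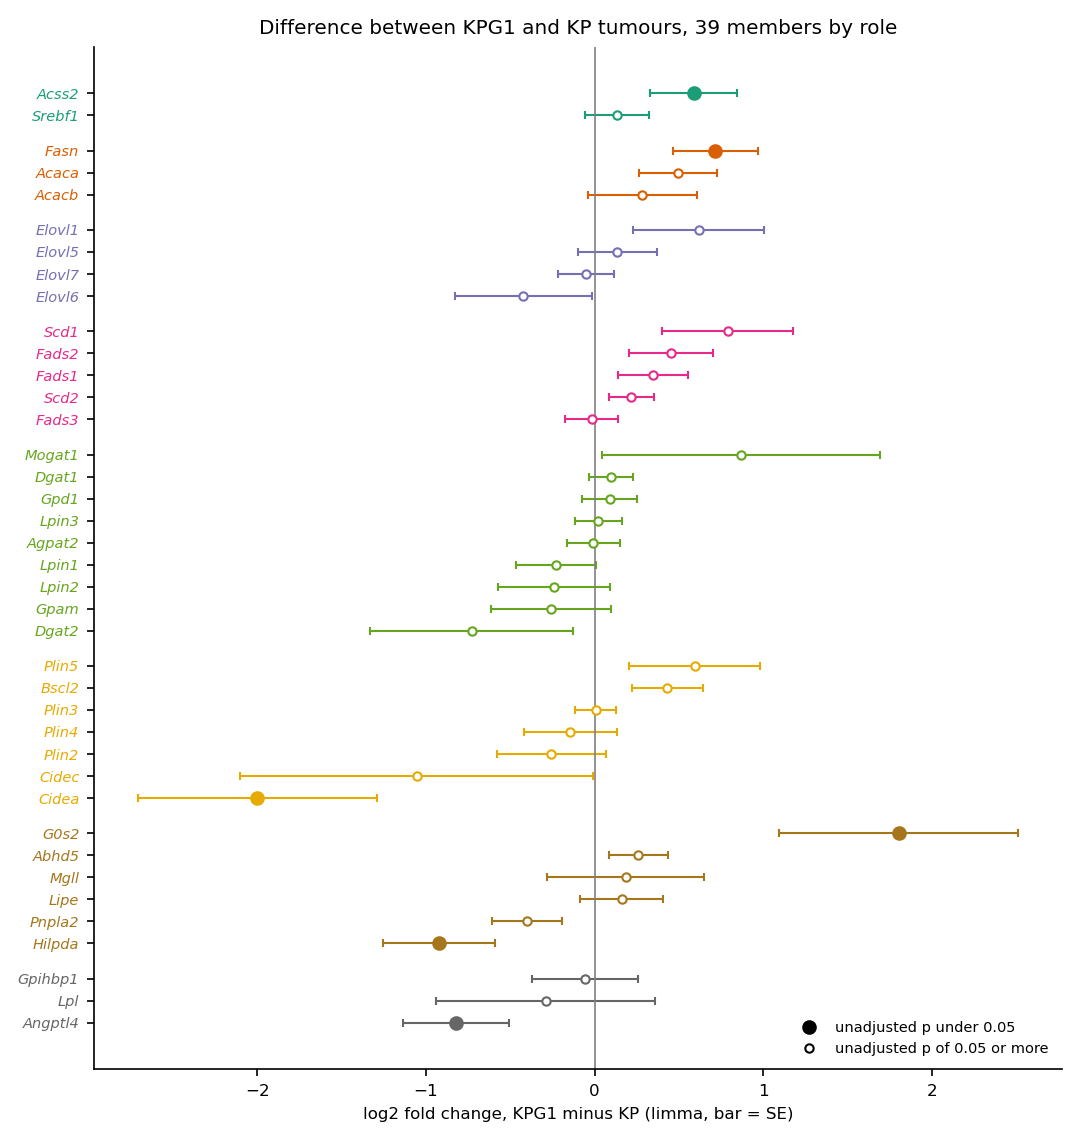
The plot of fold changes shows the log2 fold change of KPG1 over KP for the 39 tested members, 1 line per gene, grouped and coloured by role. Points are limma estimates from 5 KP and 5 KPG1 tumours, bars are 1 SE, and filled points mark the 6 members with an unadjusted p under 0.05. The 5 genes of acetyl-CoA supply, regulation and fatty acid synthesis all lie to the right of 0, and the lipoprotein lipase genes to the left.

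Scd1 was the most abundant member per length, at 502 CPM per kb over all tumours. Scd2 (184), Elovl1 (146) and Fasn (110 CPM per kb) followed, and these 4 were the members at 100 CPM per kb or more. A further 15 members lay between 10 and 100 CPM per kb and 17 between 1 and 10. Cidea (0.653), Plin5 (0.47), Plin4 (0.166) and Elovl3 (0.00889 CPM per kb) lay under 1. Elovl3, an elongase of skin and brown fat, had at most 2 counts in a library and was not tested. Adipocyte markers were at or near 0 as well. Their summed level over 7 genes was at most 0.528 CPM in KP and 0.249 CPM in KPG1, none of the 7 reached 1 CPM in a tumour, and the gene of leptin had no count.

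**Figure D2:**
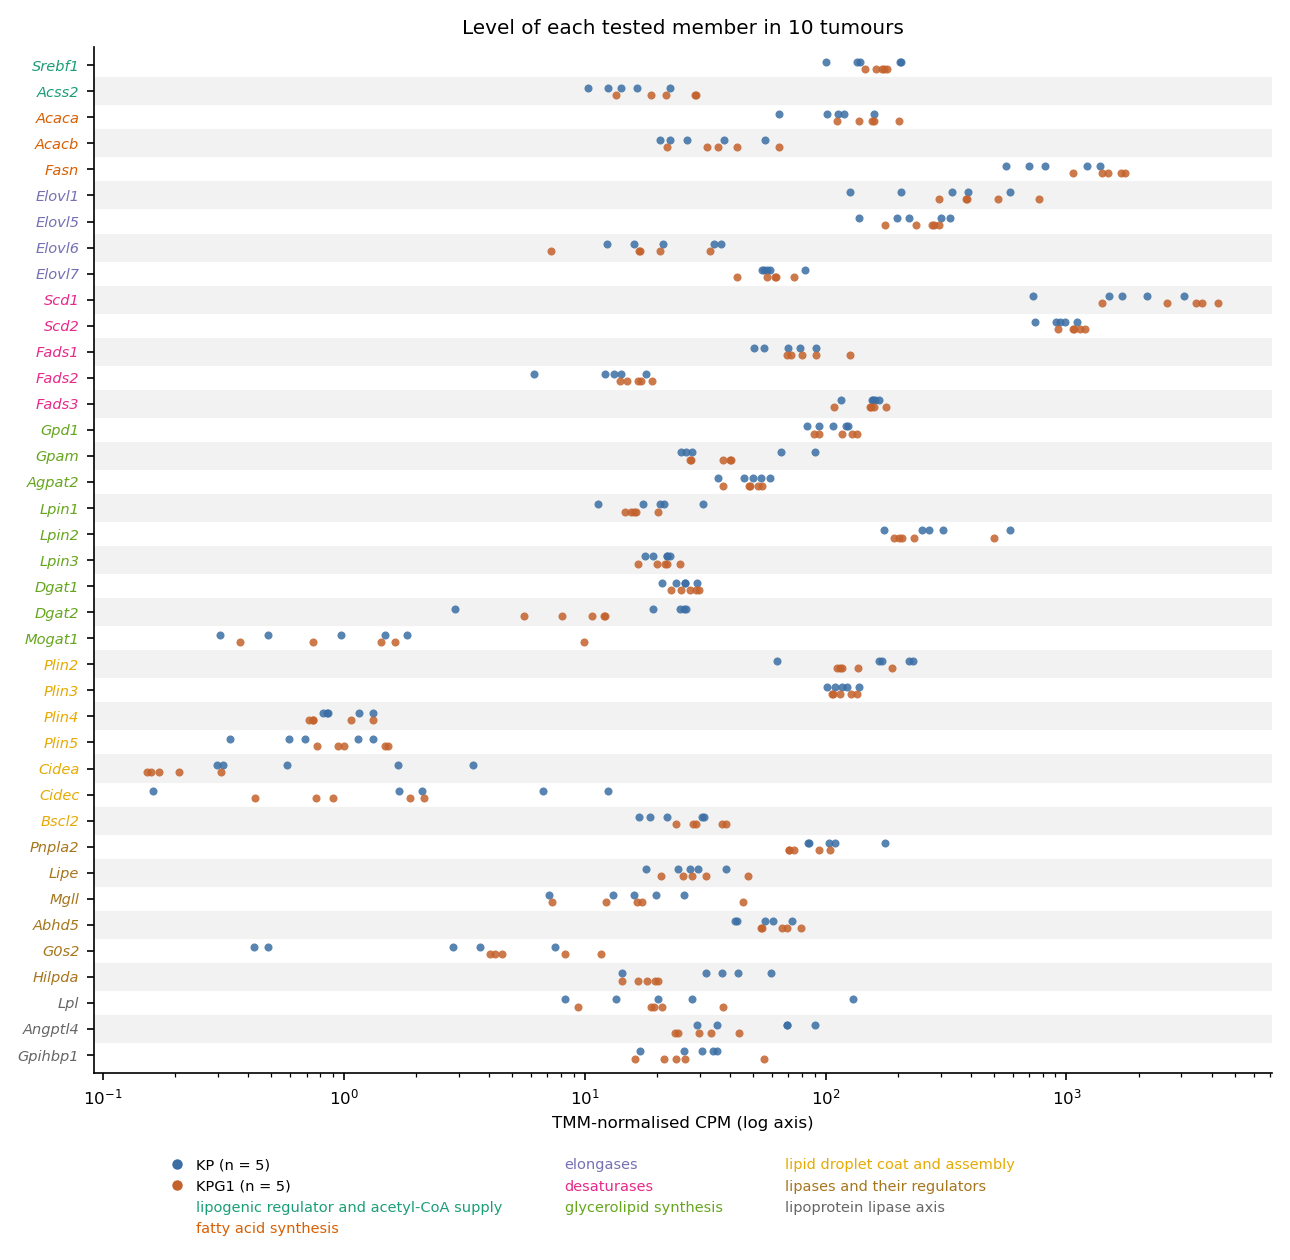
The plot of levels shows the TMM-normalised CPM of each tested member on a log axis, with 1 point per tumour (KP in blue, KPG1 in orange) and gene names coloured by role. Scd1, Fasn and Scd2 sit to the far right, Cidea, Plin4, Plin5 and Mogat1 to the far left, and the colours overlap in every line.

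Srebf1, the gene of SREBP-1, was at 136, 205, 204, 101 and 139 CPM in KP 1 to 5 and at 162, 179, 175, 171 and 146 CPM in KPG1 1 to 5. The KPG1 values all lay inside the range of KP. Its log2 fold change was 0.13 (SE 0.19, limma adjusted p = 0.829). Reads of Rai1, which overlaps its exons on the other strand, cannot be told apart from those of Srebf1 without the strand setting of the counting. Acss2, which makes acetyl-CoA from acetate, was at 12.5, 22.5, 14.1, 16.5 and 10.3 CPM in KP and at 29.0, 21.8, 28.8, 18.8 and 13.5 CPM in KPG1. KPG1 1 and KPG1 3 stood above all KP tumours, and the other KPG1 tumours inside the range of KP. Its log2 ratio of 0.59 (SE 0.26) had an unadjusted limma p of 0.0442 and an adjusted p of 0.418. Exons of Acss2os, Ggt7 and Gss overlap this gene on the other strand.

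Fasn, the gene of fatty acid synthase (chr11:120805846-120824547, minus strand, GRCm38), was at 562, 1219, 1371, 696 and 814 CPM in KP 1 to 5. In KPG1 1 to 5 it was at 1757, 1482, 1677, 1401 and 1065 CPM. All KPG1 tumours but KPG1 5 were above the highest KP tumour, and KP 1 and KP 4 were the lowest. The mean was 932 ± 347 CPM in KP and 1477 ± 271 CPM in KPG1 (SD, n = 5 each), a 1.64-fold difference (log2 0.72, SE 0.25, limma adjusted p = 0.311). Acaca and Acacb, which encode the carboxylases that make malonyl-CoA, had log2 ratios of 0.49 (SE 0.23, limma adjusted p = 0.439) and 0.28 (SE 0.32, limma adjusted p = 0.775). Acaca, the cytosolic form, made up 66.0% ± 8.6 of their summed level per length in KP and 69.4% ± 6.26 in KPG1 (SD, n = 5 each), and the tumours overlapped.

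The 250 bases before the start of Fasn (RefSeq, GRCm38.p6, chr11:120824548-120824797, minus strand, 5′ to 3′) are shown because Fasn is the member of the synthesis arm with the smallest p. Capitals mark matches on either strand to CCAAT, the letters of the NF-Y box that stands beside SREBP sites in many lipogenic promoters, and to GCGTG, a core of the hypoxia response element.
Fasn: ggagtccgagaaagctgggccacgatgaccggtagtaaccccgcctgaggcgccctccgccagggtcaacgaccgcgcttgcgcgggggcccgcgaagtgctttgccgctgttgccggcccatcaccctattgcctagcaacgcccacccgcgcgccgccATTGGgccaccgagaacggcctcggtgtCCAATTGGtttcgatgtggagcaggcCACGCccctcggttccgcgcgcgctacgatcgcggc
The stretch held the NF-Y letters at 3 places, of which 2 share bases, and the hypoxia core at 1. Of all 32851 windows of that length in the table, 33.8% held the first and 28.2% the second. The other form of the hypoxia core, ACGTG, had no match here. Neither had the E-box that contains it, CACGTG, nor did the letters of a nuclear receptor site, AGGTCA, match in this stretch.

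Scd1, the desaturase that turns stearate and palmitate into monounsaturated fatty acids, was at 729, 3072, 2162, 1499 and 1706 CPM in KP 1 to 5. In KPG1 1 to 5 it was at 4274, 3664, 3456, 2610 and 1404 CPM. KP 1 was the lowest of all tumours and KPG1 5 the next, while KPG1 1 to 3 were above every KP tumour. KPG1 exceeded KP by 0.79 on the log2 scale (SE 0.39, limma adjusted p = 0.464). Scd2, the form best known from brain, ranged only from 739 to 1192 CPM over all tumours, with a log2 ratio of 0.22 (SE 0.13, limma adjusted p = 0.563). Scd1 thus took between 47.4% and 81.7% of the summed stearoyl-CoA desaturase level per length, with a mean of 65.8% ± 12.3 in KP and 74.2% ± 9.29 in KPG1 (SD, n = 5 each). Scd3 and Scd4 together stayed under 1% in every tumour.

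Fads1 and Fads2, the desaturases of polyunsaturated fatty acids, had log2 fold changes of 0.34 and 0.45 with limma adjusted p-values of 0.547 and 0.516. Their relative Fads3 had -0.02. Elovl1, which elongates saturated very long chains, was the leading elongase at 127, 582, 391, 206 and 336 CPM in KP and 518, 766, 382, 385 and 295 CPM in KPG1. KP 1 and KP 4 were again the lowest, and KPG1 2 the highest. Its log2 ratio of 0.62 (SE 0.39) had a limma adjusted p of 0.57, and exons of Cdc20 overlap it on the other strand. Elovl6, which makes stearate from palmitate, had a log2 ratio of -0.42 (SE 0.41, limma adjusted p = 0.726). It was highest in KP 1 (36.7 CPM) and lowest in KPG1 1 (7.21 CPM), the reverse of Scd1. Elovl5 and Elovl7 had log2 fold changes of 0.14 and -0.05.

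KP 1 and KP 4, the lowest tumours for Fasn and Elovl1, were also the lowest for markers of alveolar type 2 cells. For Scd1 the match was partial, since KPG1 5, the next lowest after KP 1, had a marker sum of 65400 CPM, the second highest. Summed over 10 such genes, KP 1 held 18880 CPM and KP 4 held 29700 CPM, while KP 2, KP 3 and KP 5 held 60320 to 65160 and the KPG1 tumours 50210 to 94210. All 10 markers had a higher mean in KPG1, as did 52.7% of all genes tested. Of the 10, 3 (30%) were higher at an unadjusted limma p under 0.05, against 5.26% of all genes, and none passed after adjustment. This was not particular to these markers. All 10 endothelial markers and 6 of 7 fibroblast markers tested also had a higher mean, while most myeloid and neutrophil markers had a lower one. Sftpc, the gene of surfactant protein C, was at 5370 to 19890 CPM in KP and 17480 to 40180 CPM in KPG1. Its KPG1 mean was 211.5% of the KP mean. For the other surfactant protein genes Sftpb, Sftpa1 and Sftpd it was only 107.4%, 102.9% and 104.3%. The part of the alveolar type 2 signal in these differences was not tested. Without KP 1 and KP 4, a choice made after seeing the data that removes the lowest KP values of these genes and so lowers the difference by construction, the log2 fold change was 0.39 for Fasn, 0.35 for Scd1 and 0.06 for Elovl1.

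**Figure D3:**
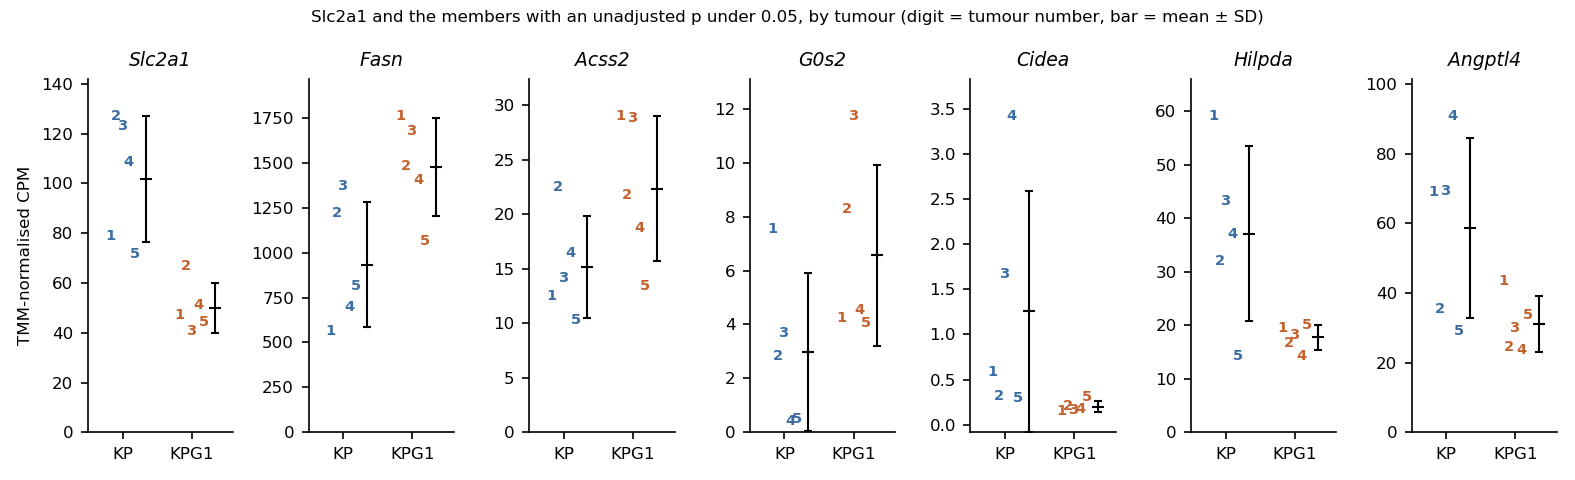
The plot by tumour shows TMM-normalised CPM of Slc2a1 and of the 6 members with an unadjusted p under 0.05. Each digit is 1 tumour at its replicate number (KP blue, KPG1 orange), and the bar beside it is the mean ± SD of 5 tumours. Slc2a1 is the only one of the 7 panels where the groups do not overlap, and the KP tumours spread more widely than the KPG1 tumours for Cidea, Hilpda and Angptl4.

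The 9 genes of glycerolipid synthesis held 0 with an unadjusted p under 0.05, against 11.6% of all genes tested, and 9 genes are too few to set them apart from the rest. Gpd1, which makes glycerol 3-phosphate from a glycolytic intermediate, was the most abundant of them per length. It was at 83.4, 93.5, 124, 122 and 107 CPM in KP 1 to 5 and at 94.2, 136, 128, 117 and 89.1 CPM in KPG1 1 to 5. The ranges were nearly the same, with a log2 ratio of 0.09 (SE 0.16, limma adjusted p = 0.868). Dgat1 and Dgat2, the enzymes of the last step to triglyceride, differed in how far the tumours spread. Dgat1 ranged from 20.97 to 29.9 CPM. Dgat2 was at 25.8, 19.2, 26.3, 25.0 and 2.89 CPM in KP 1 to 5 and at 5.6, 8.04, 12.01, 12.2 and 10.8 CPM in KPG1 1 to 5. All KPG1 values lay below KP 1 to KP 4 and above KP 5. Without KP 5, a choice that removes the lowest KP value and so widens the difference by construction, the log2 fold change of Dgat2 was -1.39 (limma adjusted p = 0.022). With all tumours the log2 fold change was -0.73 (SE 0.60, limma adjusted p = 0.674). It was -0.12 when the number that the labels give each sample entered as a numeric covariate (limma adjusted p = 0.974). KP tumours had the numbers 6, 11, 12, 15 and 16, and KPG1 tumours 1, 4, 5, 9 and 10. The number thus runs largely with genotype, and no fit with it here can tell sample order and genotype apart. Fasn had a log2 fold change of 0.78 in that fit, against 0.72 without the covariate.

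Lpin2 was the main lipin, the phosphatases that make diacylglycerol, with 67.1% to 83.8% of the summed lipin level per length. It stood at 583 CPM in KP 5 and 498 CPM in KPG1 1, and between 175 and 307 CPM in the other tumours. Mogat1 reached 9.97 CPM in KPG1 1 and at most 1.83 CPM elsewhere. Its log2 fold change of 0.87 was 0.13 without KPG1 1. Gpam, Agpat2, Lpin1, Lpin3 and Dgat1 had log2 fold changes between -0.26 and 0.10.

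Plin2, the coat protein found on droplets of most cells, led the droplet genes at 223, 167, 232, 171 and 62.8 CPM in KP 1 to 5. In KPG1 1 to 5 it was at 189, 115, 117, 111 and 136 CPM. KP 5 was the lowest tumour and the other KP tumours were above all KPG1 tumours but KPG1 1. The log2 fold change was -0.26 (SE 0.32, limma adjusted p = 0.801). Without KP 5, the lowest value, it was -0.60 (limma adjusted p = 0.124), a difference made wider by construction. It turned to 0.46 with the sample number as covariate (limma adjusted p = 0.662). Plin2 and Plin3 together made nearly all of the perilipin level per length: 58.3% ± 12.9 and 40.9% ± 12.5 in KP, 53.9% ± 5.42 and 45.0% ± 5.27 in KPG1 (SD, n = 5 each). Plin3 had a log2 fold change of 0.01. Plin4, of muscle and fat, and Plin5, of oxidative tissue, stayed at or under 1.53 CPM.

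Cidea, which fuses droplets in brown fat, was at 0.579, 0.314, 1.67, 3.42 and 0.299 CPM in KP 1 to 5 and at 0.153, 0.207, 0.159, 0.172 and 0.308 CPM in KPG1 1 to 5. The gene was near the floor in most tumours, with 6 to 145 counts, and only KP 3 and KP 4 were over 1 CPM. Its log2 fold change was -2.0 (SE 0.71, limma adjusted p = 0.314), and -0.78 with the sample number as covariate (limma adjusted p = 0.792). Cidec, the droplet fusion protein of white fat, was at 12.6, 1.7, 2.1, 6.68 and 0.161 CPM in KP 1 to 5 and at 0.765, 2.15, 1.88, 0.429 and 0.899 CPM in KPG1 1 to 5. KP 1 and KP 4 were high and KP 5 was the lowest of all. The log2 ratio of -1.06 (SE 1.05, limma adjusted p = 0.736) ran from -2.04 without KP 5 (limma adjusted p = 0.149) to 0.39 without KP 1 and KP 4. It was -1.92 with edgeR (adjusted p = 0.391) and -1.94 with DESeq2 (adjusted p = 0.169). Bscl2, the gene of seipin, which shapes budding droplets, had 0.43 (SE 0.21, limma adjusted p = 0.458).

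Pnpla2, the gene of the triglyceride lipase ATGL, was at 103, 176, 110, 84.5 and 85.2 CPM in KP 1 to 5 and at 70.2, 104, 74.2, 70.8 and 93.9 CPM in KPG1 1 to 5. Values over 100 CPM were reached by 3 KP tumours and by KPG1 2. The mean was lower in KPG1, by -0.40 on the log2 scale (SE 0.21, limma adjusted p = 0.491). Abhd5, the coactivator of ATGL, and Lipe and Mgll, the lipases of the following steps, had log2 fold changes of 0.26, 0.16 and 0.18.

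G0s2 and Hilpda both encode small proteins that bind and inhibit ATGL, and their means differed in opposite directions. G0s2 (chr1:193272161-193273217, minus strand, GRCm38) was at 7.55, 2.83, 3.67, 0.425 and 0.482 CPM in KP 1 to 5 and at 4.24, 8.27, 11.7, 4.54 and 4.06 CPM in KPG1 1 to 5. KP 4 and KP 5 were far below the rest, and KP 1 was above 3 KPG1 tumours. Its log2 fold change was 1.80 (SE 0.71, limma adjusted p = 0.361). Hilpda (chr6:29272488-29275446, plus strand, GRCm38) was at 59.1, 31.96, 43.2, 37.0 and 14.2 CPM in KP 1 to 5 and at 19.5, 16.7, 18.2, 14.3 and 20.1 CPM in KPG1 1 to 5. KP 1 to KP 4 were all above the 5 KPG1 tumours, and KP 5 was level with the lowest of them. The KPG1 mean was 47.8% of the KP mean, with a log2 ratio of -0.92 (SE 0.33, limma adjusted p = 0.327). Without KP 5 the log2 fold change was -1.26 (limma adjusted p = 0.0214), and without KP 1 and KP 4 it was -0.58 (limma adjusted p = 0.67). Leaving out KP 5, the lowest KP tumour, widens the difference by construction. With the sample number as covariate the log2 fold change of Hilpda was -0.41 (limma adjusted p = 0.758), and that of G0s2 was 1.13 with edgeR (adjusted p = 0.545).

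Most markers of myeloid cells and neutrophils also had lower means in KPG1, beside Cidea, Hilpda and Angptl4. Of 10 genes of alveolar macrophages and other myeloid cells, 9 had a lower mean. Chil3 (log2 -1.29) was the only 1 of them (10%) at an unadjusted limma p under 0.05, against 6.31% of all genes tested. The summed level of the 10 genes was 87.8 to 191 CPM in KP and 53.7 to 118 CPM in KPG1. Of 5 neutrophil genes tested, 4 had a lower mean, and 3 (60%) were lower at an unadjusted p under 0.05, against 6.31% of all genes. S100a8 (log2 -1.84) and S100a9 (log2 -1.98) did not overlap between the groups, where 2.81% of all genes showed no overlap. None passed after adjustment. The summed neutrophil level was 6.88 to 21.1 CPM in KP and 6.12 to 21.3 CPM in KPG1, and Ly6g had at most 2 counts in a library. Cxcr2 went the other way (log2 1.23) and held 19.55 of the 21.3 CPM in KPG1 4. The part of these cells in the lower means was not tested.

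Plin2 and Hilpda went together across the tumours. Over the 10 tumours r was 0.82 (permutation p = 0.00279, adjusted over 12 pairs 0.0335) and rho was 0.915 (permutation p = 0.00057, adjusted 0.00684). Without KP 3 and KP 5, the tumours farthest from the median of Plin2, r was 0.839 over 8 tumours (permutation p = 0.00875, adjusted 0.105). With the group means subtracted r was 0.926. Both genes were high in KP 1 and KP 3 and low in KP 5.

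The upstream bases of this pair (RefSeq, GRCm38.p6, 5′ to 3′) are given since the levels of these 2 members went together across the tumours. For Plin2 they are chr4:86670061-86670309 on the minus strand, and for Hilpda chr6:29272238-29272487 on the plus strand, before the farther upstream of its 2 annotated starts. Capitals mark the same letters as for Fasn and those of the nuclear receptor site, on either strand.
Plin2: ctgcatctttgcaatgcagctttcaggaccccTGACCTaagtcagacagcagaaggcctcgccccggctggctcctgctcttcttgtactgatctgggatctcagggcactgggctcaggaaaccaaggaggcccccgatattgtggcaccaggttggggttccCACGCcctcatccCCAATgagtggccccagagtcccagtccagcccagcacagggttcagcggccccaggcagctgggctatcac
Hilpda: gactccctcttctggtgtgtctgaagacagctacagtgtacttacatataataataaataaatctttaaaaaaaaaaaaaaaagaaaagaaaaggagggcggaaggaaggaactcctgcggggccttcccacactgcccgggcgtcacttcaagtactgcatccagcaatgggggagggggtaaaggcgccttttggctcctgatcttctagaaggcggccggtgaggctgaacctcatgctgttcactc
The Plin2 stretch held the GCGTG form of the hypoxia core, the NF-Y letters and the nuclear receptor site at 1 place each, and 14% of all windows of 250 bases held the last of these. The Hilpda stretch shown held none of the 5 motifs. The window of its second start, whose bases nearest that start are exon of the longer transcript and are not printed, held ACGTG at 1 place and the other form of the core at 2. Of all windows, 16.6% held the ACGTG form. Of the 40 members, 29 had a window in the table.

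**Figure D4:**
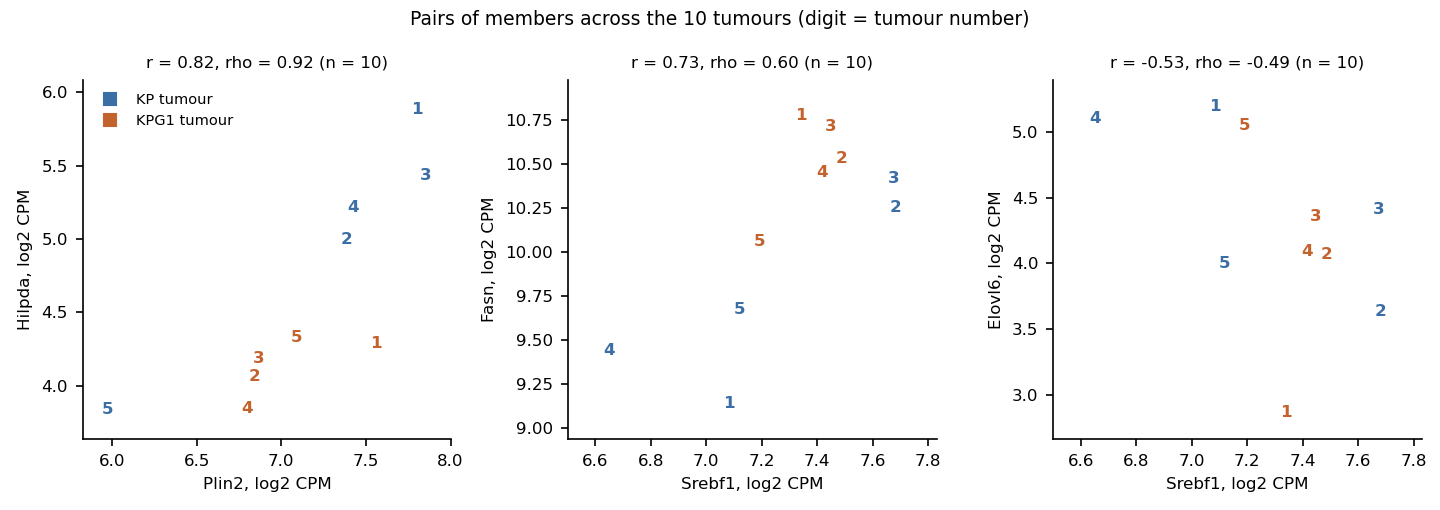
The plot of pairs shows log2 CPM of 2 members against each other, with 1 digit per tumour (KP blue, KPG1 orange). Plin2 and Hilpda rise together within each group, and the KPG1 tumours lie lower in Hilpda than the trend of the KP tumours. The points scatter more widely for Srebf1 with Fasn (r = 0.726) and for Srebf1 with Elovl6 (r = -0.53). Neither of these pairs passed after adjustment.

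The other 11 pairs did not pass an adjusted p of 0.05. Srebf1 had r = 0.726 with Fasn (rho = 0.6) and r = 0.773 with Acaca (rho = 0.709), both with an adjusted permutation p of 0.0639 for r. Without KP 2 and KP 4 these were 0.757 and 0.429. Its r was 0.599 with Scd1, -0.119 with Scd2 and -0.53 with Elovl6. Pnpla2 and its inhibitor G0s2 had r = 0.008. Slc2a1 and Angptl4 had r = 0.576, which was 0.061 with the group means subtracted. Slc2a3, the gene of the transporter Glut3, and Hilpda had r = 0.174, which was 0.793 with the group means subtracted.

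Lipoprotein lipase releases fatty acids from circulating lipoproteins, Gpihbp1 holds it on the capillary wall, and Angptl4 inactivates it. Angptl4 (chr17:33773750-33781830, minus strand, GRCm38) had the highest level per length of the 3 in KP (16.6 CPM per kb, against 11.2 for Gpihbp1), but not in KPG1 (8.76 against 11.2 CPM per kb). It was at 69.0, 35.4, 69.3, 90.7 and 29.2 CPM in KP 1 to 5 and at 43.5, 24.5, 29.8, 23.8 and 33.6 CPM in KPG1 1 to 5. KP 1, KP 3 and KP 4 were above every KPG1 tumour, and KP 2 and KP 5 were inside their range. Its log2 fold change was -0.82 (SE 0.31, limma adjusted p = 0.352), which was -0.11 with the sample number as covariate (limma adjusted p = 0.933). Lpl itself was at 130 CPM in KP 1 and between 8.27 and 37.6 CPM in the other 9 tumours. Its log2 ratio of -0.29 (SE 0.65, limma adjusted p = 0.895) became 0.35 without KP 1 and was -0.91 with edgeR (adjusted p = 0.632). Gpihbp1, an endothelial protein, was highest in KPG1 1 (55.6 CPM), where the sum of 10 endothelial markers was also highest (1398 CPM, against 296 to 962 in KP and 482 to 730 in the other KPG1 tumours), and the part of those cells in it was not tested.

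Among the tumours, KPG1 1 most often had the highest value of a member and KP 1 most often the lowest. KPG1 1 had the highest value of 14 of the 39 members (35.9%), against 11.2% of all genes tested. KP 1 had the lowest value of 13 (33.3%), against 16.7%. Both also stood at the other end: KP 1 was highest for 5 members (12.8%, against 15.3%). KPG1 1 was lowest for 4 (10.3%, against 12.5%). The KP tumours differed more among themselves than the KPG1 tumours for 27 of 39 members (69.2%), as they did for 73.5% of all genes tested. The median SD of log2 CPM over the members was 0.52 in KP and 0.32 in KPG1. The members with the widest range, Cidec, Mogat1, G0s2 and Cidea, differed 22.4-fold to 78.0-fold between the highest and the lowest tumour, and Plin3 only 1.35-fold.

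**Figure D5:**
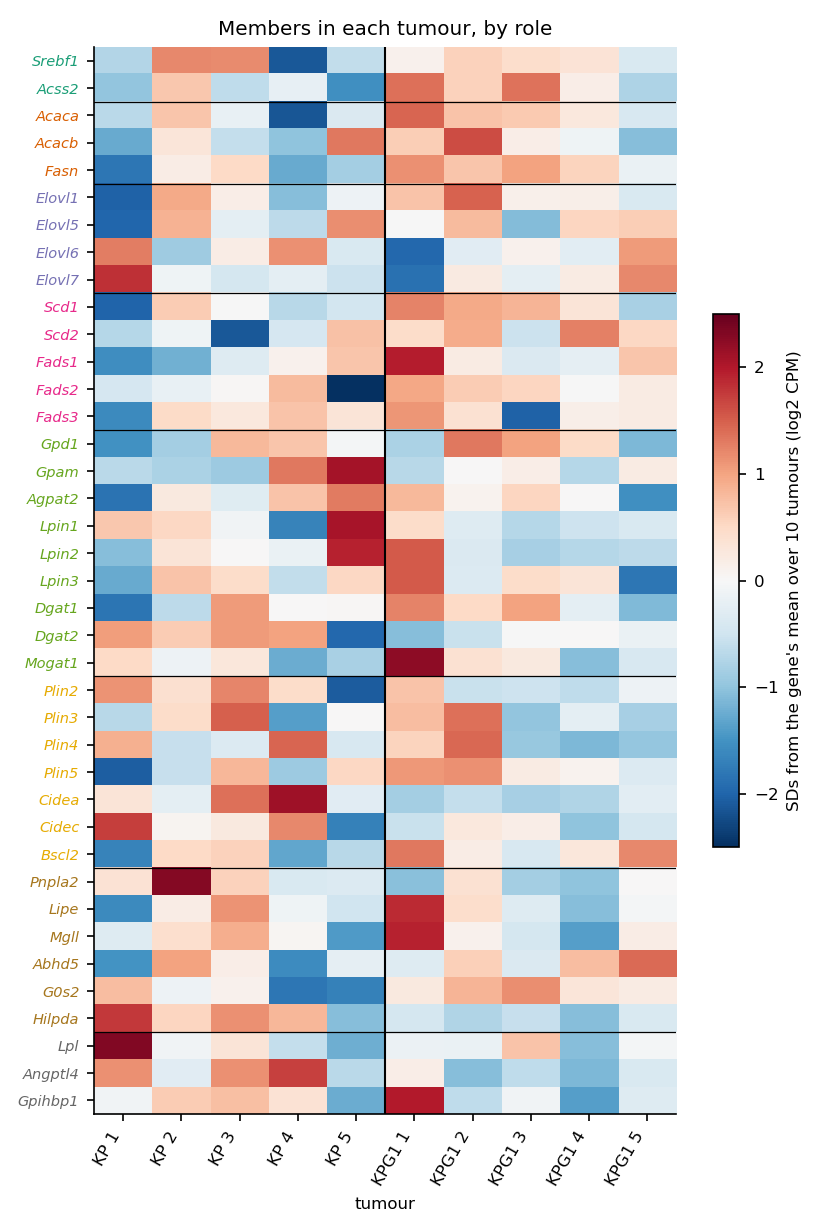
The map shows each tested member (lines, in order of role) in each of the 10 tumours (columns) as the distance of its log2 CPM from its mean over the tumours, in SDs. The KP 1 column is low for Fasn, Elovl1 and Scd1 and high for Lpl and Hilpda, and the KPG1 1 column is high for Fads1, Mogat1, Mgll and Gpihbp1.

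Of 72 further genes of lipid metabolism that are no members, 68 were tested and 0 passed with limma (adjusted p from 0.225). With DESeq2 1 was higher, Hacd3 (Ptplad1 in the files, adjusted p = 0.0408), and 1 lower, Pcyt1b (adjusted p = 0.04). Of the DESeq2 calls in the simulated counts, 44 of 185 were false. At an unadjusted limma p under 0.05, 6 were higher and 3 lower (13.2%, near the 11.6% of all genes tested), and the groups did not overlap for 2 of the 68, where 2.81% of all genes showed no overlap. Insig1, which holds the SREBP proteins in the endoplasmic reticulum and is itself a target of them, was at 104, 88.5, 86.4, 83.1 and 87.9 CPM in KP and at 79.2, 46.3, 41.4, 41.1 and 76.1 CPM in KPG1. The groups did not overlap (log2 -0.72, SE 0.20, limma adjusted p = 0.225). Hacd3, an enzyme of very long chain elongation, was at 64.9 to 86.6 CPM in KP and 90.7 to 115 CPM in KPG1, also without overlap (log2 0.41, SE 0.12, limma adjusted p = 0.234). Slc27a1, a fatty acid transport protein, and Agpat1, an acyltransferase beside Agpat2, had log2 fold changes of 0.40 and 0.36 with limma adjusted p-values of 0.245 and 0.363.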

How the data were processed

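Stranded mRNA libraries were sequenced from one end (per the labels and the paper's methods). The submitters' processing notes name bcl2fastq 2.17, cutadapt 1.4.2, HISAT2, featureCounts 1.4.4, edgeR and the build mm10. The strand setting and annotation release are not given in the sources used here. The deposited counts are whole reads per gene, made by the authors and not normalized, and the joint table matched the per-library files in all 390170 values. The authors' log2 table was not used.

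Genes were kept by filterByExpr (16216 of 39017), scaled by TMM (edgeR 4.0.16) and tested by voom and limma 3.58.1 in R 4.3.3 with genotype as the only term and Benjamini-Hochberg adjustment over all genes tested (threshold 0.05). Log2 CPM used a prior count of 2. Exon lengths and positions came from GENCODE (GRCm38), and promoter windows from RefSeq. Pairs of genes were tested by 100000 permutations (scipy 1.17.1). The scripts were tested on simulated data. DESeq2 1.42.0, edgeR's quasi-likelihood test and other settings were alternatives.

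Named genes were members with an unadjusted p under 0.05, no overlap or a log2 fold change of at least 1, the most abundant per length of each role, and up to 5 other lipid genes per direction. Values of Dgat2, Lpin2, Lpl and Mogat1 are given because single tumours lay far from most others in them. Of these genes, Dgat2 and Lpin2 met the rule for standing apart given below, and Lpl and Mogat1 did not. The markers Sftpc, Sftpb, Sftpa1, Sftpd, Chil3, S100a8, S100a9 and Cxcr2 are named beside the counts of their lists. All of these were chosen after their values were seen. The members and lists were chosen with earlier results of these data known. Replicate numbers did not pair the tumours. Which engineered alleles initiate the tumours is not reported here.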

Additional observations from a re-analysis of the deposited data

Results flagged for a closer look

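In each group of 5, the tumour at either end was compared with the rest on log2 CPM for the 39 members tested, Slc2a1 and the other lipid genes named. A gap to the nearest tumour of over 0.71 of the group's range (Dixon's 95% value for 5) was taken as standing apart. Of 96 groups searched, 6 did, and chance gives about 1 in 20 groups. KP 1 stood apart for Elovl7 (6.37, others 5.77 to 5.88), Fads3 (6.86, others 7.28 to 7.39) and Insig1 (6.7, others 6.38 to 6.47). KP 5 stood apart for Dgat2 (1.56, others 4.27 to 4.72) and Plin2 (5.97, others 7.38 to 7.86). KPG1 1 stood apart for Lpin2 (8.96, others 7.59 to 7.86), and without it the log2 fold change of Lpin2 was -0.51.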

How the results depend on the processing

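Depth was at least 32427029 counts in every library. The simulated counts, with 5 libraries per group, show how much limma can miss. It called 25 of 97 genes given a true 2-fold difference (25.8%). At a true 4-fold difference it called 71 of 97 (73.2%). Most differences of 2-fold would thus go uncalled at this design. Which of depth, the number of tumours and the spread between them sets this limit was not tested. Of the 39 members, 20 kept their direction under all alternatives run, and 0 were called higher in any. The share of all genes tested that kept theirs is not given, so the first count does not set the members apart. The number of genes higher (10) and lower (18) over all genes became 125 and 423 with DESeq2, 51 and 177 with quality weights, 5 and 31 at a mean CPM of at least 20, and 4 and 4 with the sample number as covariate. The number lower was 29 with edgeR, 31 without a filter and 44 without KP 1 and KP 5. Without KP 1 and KP 4, a setting chosen after seeing the data, it was 3 higher and 1 lower. With the replicate block it was 4 and 1, and 5 members were higher at an unadjusted p, without the share over all genes. The numbers do not pair the tumours (correlations of deviations from -0.161 to 0.076, and 1 of 5 KP tumours correlated best with its own number).

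The number of members called lower (0) was 2 with DESeq2, 1 with quality weights and 1 without KP 1 and KP 5. The members with an unadjusted p under 0.05 (3 higher, 3 lower) became 1 and 5 with edgeR. The number higher was 5 without a filter, 1 at a mean CPM of at least 20 and 1 without KP 1 and KP 5. The number lower was 5 with DESeq2, 6 with quality weights, 0 with the sample number, 7 without KP 1 and KP 5 and 1 without KP 1 and KP 4. These counts stand without the shares over all genes in the same settings and do not set the members apart. DESeq2 called 1 other lipid gene higher and 1 lower. Slc2a1 passed the threshold with DESeq2 (log2 -1.04), quality weights (-1.13) and without KP 1 and KP 5 (-1.29). KP 1 and KP 5 had the lowest Slc2a1 of the KP tumours. Leaving out KP 5, or both, widens its difference by construction.

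Leaving out 1 tumour at a time gave 3 to 71 genes higher and 1 to 223 lower, 0 to 2 members lower, 1 to 8 members higher and 2 to 7 lower at an unadjusted p, and -1.14 to -0.92 for Slc2a1, which passed the threshold without KP 5. Shares over all genes at an unadjusted p are not given for these fits, and the counts do not set the members apart. The median of the members ran from -0.03 (without KPG1 1) to 0.12.

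Some directions turned. The log2 fold change of Cidec was 0.39 without KP 1 and KP 4. That of Srebf1 ran from -0.017 (without KP 4) to 0.24 (without KP 2) and was -0.12 without KP 1 and KP 4. That of Gpd1 was -0.024 with the sample number and -0.023 without KP 1 and KP 5, and that of Plin2 was 0.46 with the sample number. The r of Fads1 and Fads2 (0.125) was -0.308 without KP 1 and KPG1 1 and -0.145 with the group means subtracted. For these, the cause was not tested.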

Other observations

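Phosphatidylcholine of lung surfactant is made from choline and diacylglycerol, and its saturated form by reacylation of lysophosphatidylcholine. Of 7 genes of these steps, 3 had a higher and 4 a lower mean in KPG1, and none passed after adjustment. Lpcat1, the acyltransferase of the reacylation step, was at 563, 1284, 789, 447 and 773 CPM in KP 1 to 5 and at 1243, 1075, 1146, 1117 and 1206 CPM in KPG1 1 to 5. The KPG1 tumours lay close together, and all of them were above every KP tumour but KP 2 (log2 0.67, SE 0.24, limma adjusted p = 0.322). Chpt1, which joins choline phosphate to diacylglycerol, had a log2 fold change of 0.48 (limma adjusted p = 0.417).

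Chka, the choline kinase of the first step, was at 475, 455, 338, 446 and 232 CPM in KP 1 to 5 and at 293, 231, 195, 253 and 337 CPM in KPG1 1 to 5. KP 5 lay inside the range of KPG1 and the other KP tumours above it (log2 -0.55, SE 0.22, limma adjusted p = 0.363). Pcyt1b, the minor form of the rate-limiting enzyme, was at 7.72, 1.1, 4.34, 3.8 and 1.47 CPM in KP and at 0.459 to 2.11 CPM in KPG1 (log2 -1.77, SE 0.61, limma adjusted p = 0.302).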
